A study of Homo sapiens with 12 samples.

Results

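Cells make cholesterol and fatty acids from acetyl-CoA, and the genes of these pathways, with the factors that control them, were followed here in multiple myeloma lines grown with or without bone marrow stromal cells. A list of 30 genes was used, made up of SREBP regulators, mevalonate enzymes, sterol enzymes, 1 sterol transport gene and fatty acid enzymes. All probe sets that name 1 of these genes alone were taken, which gave 60 probe sets of 27 genes, of 54675 probe sets on the array. Of the 60, 52 probe sets passed the filter on low values and all 27 genes kept at least 1 of them, among 15052 genes in all that did so. CYP51A1 and FADS1 were named only together with another gene, on 5 probe sets, and FDFT1 was on no probe set of the annotation used, so these genes were not analysed here.

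The data are 12 Affymetrix U133 Plus 2.0 arrays, with 2 arrays in each of 6 groups. The lines MM.1S, MM.1R and INA-6, all established human myeloma lines, stably carried green fluorescent protein (GFP). Each was cultured for 24 hours either alone or beside HS-5 cells, an established stromal line of human bone marrow, and the GFP-positive cells were then separated by flow sorting. MM.1S and MM.1R were derived from the same patient and MM.1R is resistant to glucocorticoids, while INA-6 depends on interleukin 6. The sources used here name neither the promoter that drove GFP nor any interleukin 6 in the medium. The 2 arrays of a group are technical replicates of 1 culture condition, so the p-values of single lines measure only the spread between such arrays. HS-5 cells alone were not analysed here.

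SREBP-2, encoded by SREBF2, and SREBP-1, encoded by SREBF1, are membrane-bound transcription factors that switch on sterol and fatty acid genes. When membrane sterol is low, SCAP escorts them from the endoplasmic reticulum to the Golgi, where they are cut and released, and when sterol is high INSIG proteins hold SCAP back. The mevalonate enzymes lead to isoprenoids, which also modify small GTPases, and the sterol enzymes turn squalene into cholesterol. Myeloma cells are secretory cells with a large endoplasmic reticulum, whose membranes need both kinds of lipid.

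The promoters of SREBF2, MSMO1 and DHCR7 are shown because only these members had a brightest probe set that fell and passed in all 3 lines (below). They come from the RefSeq promoter table (GRCh38.p14) and run 5′ to 3′ from 250 bases before to 50 bases after the start, at chr22:41832855-41833154 on the plus strand for SREBF2, chr4:165327419-165327718 on the plus strand for MSMO1, and chr11:71448344-71448643 on the minus strand for DHCR7. Capitals mark matches on either strand to a sterol regulatory element, TCACNCCAC, and to the CCAAT box bound by NF-Y.
SREBF2: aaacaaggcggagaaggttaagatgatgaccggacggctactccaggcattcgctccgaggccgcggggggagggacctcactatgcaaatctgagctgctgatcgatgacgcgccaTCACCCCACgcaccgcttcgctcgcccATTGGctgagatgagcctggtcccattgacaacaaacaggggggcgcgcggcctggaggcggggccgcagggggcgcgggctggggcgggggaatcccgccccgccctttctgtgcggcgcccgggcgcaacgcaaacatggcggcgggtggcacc
MSMO1: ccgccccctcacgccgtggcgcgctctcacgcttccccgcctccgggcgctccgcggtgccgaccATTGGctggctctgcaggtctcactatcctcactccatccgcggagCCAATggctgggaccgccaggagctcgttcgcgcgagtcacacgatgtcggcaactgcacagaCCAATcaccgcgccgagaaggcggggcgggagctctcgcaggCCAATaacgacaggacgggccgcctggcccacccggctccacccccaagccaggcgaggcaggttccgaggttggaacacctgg
DHCR7: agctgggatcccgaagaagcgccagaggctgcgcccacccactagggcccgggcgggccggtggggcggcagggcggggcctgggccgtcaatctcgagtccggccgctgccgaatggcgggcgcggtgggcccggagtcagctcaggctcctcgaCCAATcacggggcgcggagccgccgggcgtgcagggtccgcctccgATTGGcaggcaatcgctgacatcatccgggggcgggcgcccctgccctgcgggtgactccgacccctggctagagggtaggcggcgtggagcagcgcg
The table held 35 such windows of 26 of the 30 listed genes. A sterol regulatory element of these letters lay in 1 of the 35 windows (2.86%), that of SREBF2, starting 133 bases before the start, against 1.13% of all 35116 windows. CCAAT lay in 24 of the 35 windows (68.6%), against 34.6% of all windows. It was found 4 times in the MSMO1 window, 2 times in that of DHCR7 and 1 time in that of SREBF2. DHCR7 had another window in the table that held neither motif. The Sp1 box GGGCGG lay in 88.6% of the members' windows against 45% of all, and the E-box CACGTG in 14.3% against 7.26%. Matches of different motifs can share end letters and were counted separately. A match says only that the letters are present.

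Values are intensities as deposited, and a change is the difference of means of log2(intensity + 5), cocultured minus alone, with its standard error (SE). It understates the change of dim probe sets. A gene is represented by its brightest tested probe set. Array medians lay between 19.8 and 24.1. Duplicate arrays correlated at 0.946 to 0.986 over the brightest tested probe set of every gene, except INA-6 alone at 0.839. All 9 plasma cell markers were above the array median on both arrays of every group, but they moved with coculture as well. In MM.1S 7 of the 9 rose and their summed intensity was 13412 to 13484 alone and 24504 to 25139 cocultured. In MM.1R 3 rose, and in INA-6 2 rose and 4 fell, with sums of 22637 to 22742 alone and 15095 to 15186 cocultured. Of 17 stromal markers, 11 rose in MM.1S, 13 in MM.1R and 9 in INA-6, where 1 fell. Of all genes 22.8%, 12.0% and 38.2% were higher in these lines, and 12.5% lower in INA-6. COL6A2 passed the filter on low values only through the cocultured arrays of all 3 lines, and PDGFRB only through those of the MM.1 lines. The filter fixed these directions. The summed intensity of the 17 stromal markers was 2184 to 2277 in MM.1S alone and 16975 to 16988 cocultured. In MM.1R it was 3407 to 3424 alone and 29190 to 30454 cocultured, and in INA-6 6459 to 8156 alone and 15953 to 16217 cocultured. In cells alone none of the 17 was at 0, and 8 to 12 of them were above the array median on both arrays of a group. COL1A2 was at 12.3 to 29.1 and COL6A2 at 5.45 to 11.3 there, but LGALS1 at 1036 to 2079, and TIMP1 read 1223 and 1345 in INA-6 alone. COL1A1 was at 227 to 1817 on the probe set that represents it in the counts and sums. Its means were 305 alone and 298 cocultured in MM.1S, 245 and 319 in MM.1R, and 1129 and 261 in INA-6. Another COL1A1 probe set read 7.32 to 14.5 alone and 1106 to 3001 cocultured. Others read 3.07 to 35.05 against 942 to 2565, and 3.03 to 15.7 against 77.8 to 306. The dimmest had means of 27.5 and 8.59 in MM.1S, 10.5 and 12.85 in MM.1R, and 67.5 and 16 in INA-6. The 3′ to 5′ ratio of the ACTB control probe sets, a sign of RNA or label quality, moved with coculture too. It was 22.4 alone and 5.10 cocultured in MM.1S, 31.4 and 5.21 in MM.1R, and 5.51 and 32.0 in INA-6, so that it was lower in the cocultured MM.1 lines and higher in cocultured INA-6. The GAPDH ratio moved the same way, 5.99 alone and 1.89 cocultured in MM.1S, 6.51 and 1.71 in MM.1R, and 2.88 and 4.96 in INA-6. Means of the BioB spike-in control were lower after coculture in every line. They were 2173.5 alone and 383 cocultured in MM.1S, 625 and 423 in MM.1R, and 3942 and 854 in INA-6. What HS-5 RNA, plasma cell content, RNA quality or the BioB difference contributed to the changes below was not tested. In a sorted culture fewer cells of a type and less RNA per cell cannot be told apart.

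Coculture did not move the pathway genes one way. SREBF2, MSMO1 and DHCR7 fell and passed in all 3 lines on their brightest probe set, which is 3 of 27 members, against 0.625% of all genes. No member rose and passed in all 3 lines, where 6.60% of all genes did. Whether or not they passed, 5 members were above 0 and 6 below 0 in all 3 lines, against 34.3% and 17.4% of all genes. Opposite directions passed in different lines for 4 members (FDPS, SQLE, LSS and FASN), against 4.10% of all genes. In MM.1S 2 members rose and 5 fell, against 22.8% and 7.69% of all genes. In MM.1R 2 rose and 5 fell, against 12.0% and 2.13%. In INA-6 8 rose and 10 fell, against 38.2% and 12.5%. MVD is among the 10, but it passed the filter only through INA-6 alone, which fixed that direction. The members' median change was -0.07 in MM.1S, -0.08 in MM.1R and -0.03 in INA-6, beside medians over all genes of 0.11, 0.09 and 0.47. With quantile normalization the members' medians were -0.33, -0.35 and -0.49, beside -0.06, -0.07 and 0.16 for all genes, and 3 members rose in INA-6 in place of 8, while 9 fell in MM.1S and 9 in MM.1R in place of 5 in each. With 1 array left out in turn, 1 to 5 rose and 4 to 7 fell in MM.1S, 0 to 3 rose and 2 to 10 fell in MM.1R, and 4 to 11 rose and 6 to 12 fell in INA-6. That scaling also took the share of all calls that were higher to 59.3% in MM.1S, where it was 74.8%, to 63.1% in MM.1R (84.9%), and to 60.7% in INA-6 (75.3%). Centring each array on the median of its tested probe sets took these shares to 64.3%, 68.3% and 55.4%. The members' median was below that of all genes in each line on all 3 scales.

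The fit common to the lines, which used the mean of each group's 2 arrays and the line as a block, called no member at an adjusted p of 0.05 (limma, Benjamini-Hochberg over 35664 probe sets), where 1.48% of all genes were higher and 0.00664% lower. Of the members, 4 (14.8%) had an unadjusted p below 0.05, against 20.9% of all genes, and the fit of gene means called 0 too. SREBF2 came nearest, with a change of -2.25 (SE 0.42, adjusted p 0.0701 by limma). Fitted with 1 probe set per gene it passed, at an adjusted p of 0.0365, alone among the members, where 0.106% of all genes were lower. The members' median in this fit was -0.11, beside 0.27 for all genes.

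**Figure D1:**
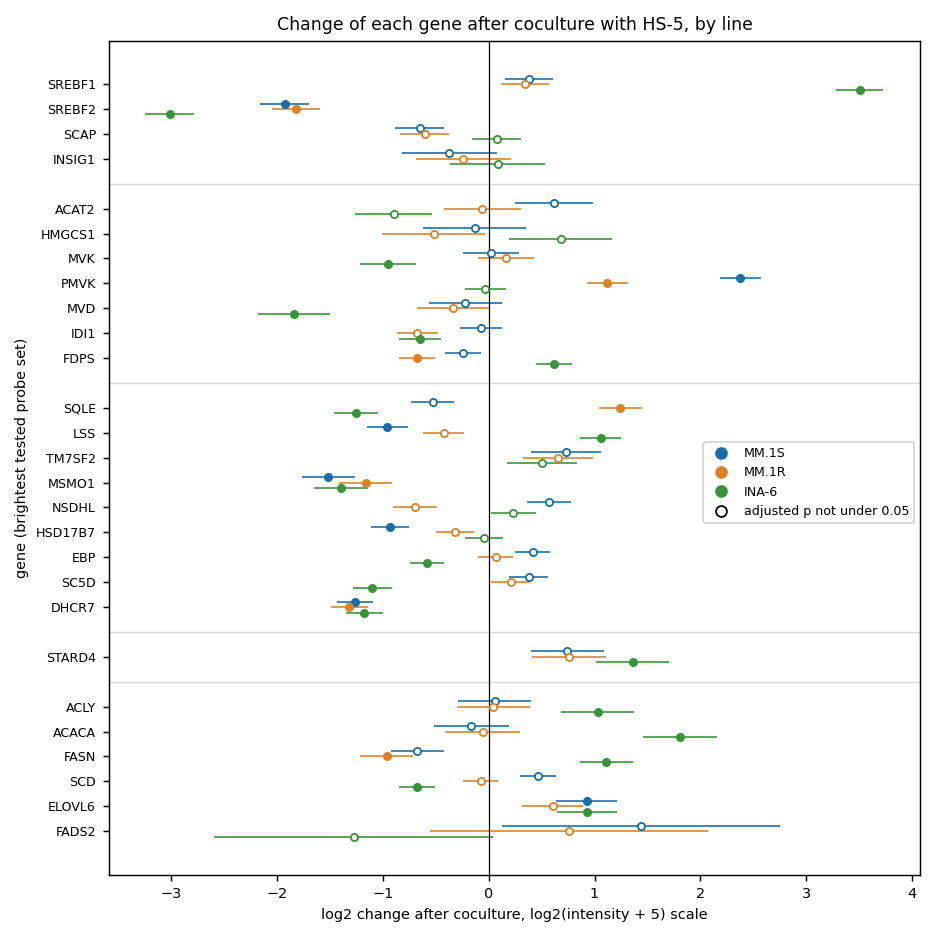
Change of each of the 27 genes after coculture (log2 scale, x axis) on its brightest tested probe set, grouped by role, with 1 point per line and bars of 1 SE. Filled points passed at an adjusted p of 0.05. SREBF2, MSMO1 and DHCR7 have all 3 points filled and left of 0, while SREBF1 stands at 3.50 in INA-6 only.

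MSMO1, the methylsterol monooxygenase that removes methyl groups from the sterol ring, lay well apart between the groups. Its intensity was 1751 and 1810 in MM.1S alone and 608 and 631 after coculture. In MM.1R it went from 1430 and 1499 to 663 and 641, and in INA-6 from 1477 and 849 to 422 and 425. Cocultured and alone arrays did not overlap in any line, and the share of all genes without such overlap was not counted. The changes were -1.52 (SE 0.25, adjusted p 0.00261), -1.16 (SE 0.25, adjusted p 0.0180) and -1.39 (SE 0.25, adjusted p 0.00236) in MM.1S, MM.1R and INA-6 by limma. MSMO1 had 1 tested probe set. Its MM.1R call was lost when any of the 4 MM.1R arrays was left out (adjusted p up to 0.111), while the other calls held without each of the 12 arrays. Without the first or the second INA-6 alone array the INA-6 change was -0.997 or -1.79.

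DHCR7, the reductase of the last step to cholesterol, showed changes of nearly equal size on probe set 201791_s_at. It stood at 575 and 571 in MM.1S alone against 233 and 239 cocultured. The MM.1R arrays read 500 and 489 alone against 213 and 180.0, and those of INA-6 1034 and 1006 alone against 420.0 and 481. No cocultured array reached the alone arrays of its line. The changes were -1.26 (SE 0.17, adjusted p 0.00101), -1.32 (SE 0.17, adjusted p 0.00194) and -1.17 (SE 0.17, adjusted p 0.000839), and these limma calls held without each of the 12 arrays in turn. The dimmer probe set 201790_s_at differed in the MM.1 lines. On it DHCR7 rose by 0.98 in MM.1S (adjusted p 0.0412), stood at 0.13 in MM.1R (adjusted p 0.867), and fell by 1.36 in INA-6 (adjusted p 0.00643). The fall of DHCR7 in all 3 lines is thus a statement about 1 of its 2 probe sets.

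SREBF2 had the lowest changes of all members, but they too belong to 1 probe set, 242748_at. Its intensity fell from 296 and 286 to 83.8 and 63.2 in MM.1S, and from 203 and 197 to 54.4 and 51.8 in MM.1R. In INA-6 it fell from 765 and 1123 to 105 and 117. The groups were far apart in each line, with changes of -1.93 (SE 0.23, adjusted p 0.000524), -1.82 (SE 0.23, adjusted p 0.00163) and -3.01 (SE 0.23, adjusted p 3.32e-05) that passed without each of the 12 arrays. Neither of the other probe sets passed in the MM.1 lines, at -0.27 and -0.75 on 201247_at and -0.43 and -0.64 on 201248_s_at in MM.1S and MM.1R. In INA-6 they pointed the other way: 201248_s_at rose by 2.64 (SE 0.38, adjusted p 0.000752), from 27.4 and 12.0 to 125 and 158, and 201247_at stood at 0.93 (adjusted p 0.0656). No direction for SREBF2 as a gene follows in INA-6, and its mean over 3 probe sets there was 0.19.

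**Figure D2:**
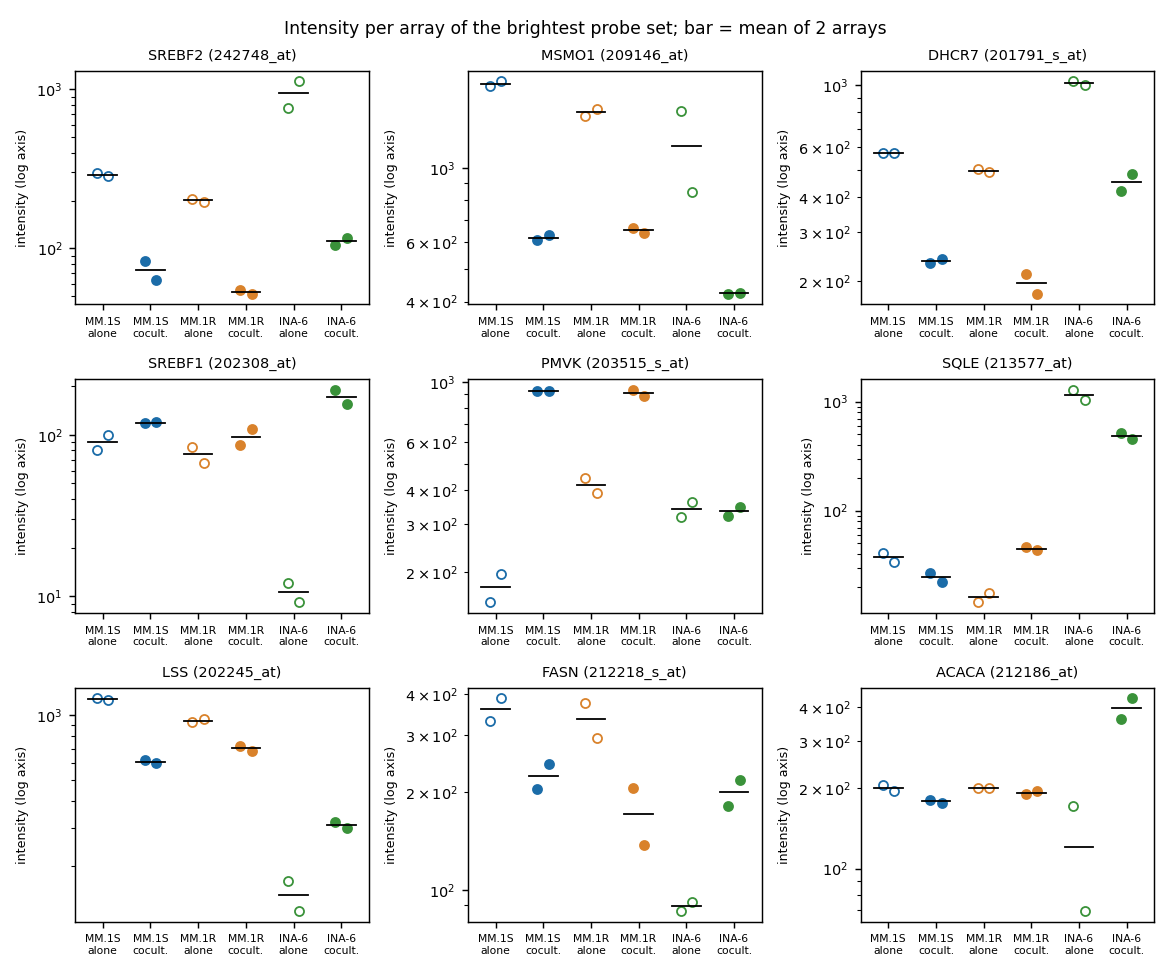
Intensity on every array (log axis) for 9 genes on their brightest probe set, in the 6 groups; open points are cells alone, filled points cocultured cells, and bars the mean of 2 arrays. The top panels show SREBF2, MSMO1 and DHCR7 below the level of cells alone in each line, and the SQLE panel shows INA-6 far above the MM.1 lines.

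Among the other SREBP regulators, SREBF1, which encodes the factor with most weight on fatty acid genes, rose in INA-6 and did not pass in the MM.1 lines. Its intensity on 202308_at was 12.1 and 9.16 in INA-6 alone and 190 and 155 after coculture, a change of 3.50 (SE 0.23, adjusted p 1.65e-05 by limma). The arrays of INA-6 alone were below the array median, so the size of this rise rests on levels near background. Those of cocultured INA-6 were above every MM.1 array. In MM.1S SREBF1 went from 81.1 and 100.2 to 119 and 120, a change of 0.38 (adjusted p 0.254), and in MM.1R from 84.7 and 66.9 to 86.2 and 108 (0.34, adjusted p 0.423). A dim second SREBF1 probe set did not pass in any line and stood at 1.30 in INA-6 (adjusted p 0.214). SCAP, the escort protein, did not pass in any line, at -0.65, -0.61 and 0.08 in MM.1S, MM.1R and INA-6. With either INA-6 alone array left out SCAP passed in both MM.1 lines (adjusted p down to 0.00294), and without the first it passed in INA-6 at 0.40 (adjusted p 0.0390). INSIG1, which holds SCAP back, did not pass either, with changes of -0.37, -0.24 and 0.08. INSIG1 in INA-6 rested on which alone array was used: these read 1099 and 342 against 648 and 655 cocultured, so its change was 0.92 (adjusted p 0.00220) without the first and -0.75 (adjusted p 0.00740) without the second.

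Of the 7 mevalonate enzymes measured, PMVK, which adds the second phosphate to mevalonate, rose in both MM.1 lines. It read 154 and 197 in MM.1S alone and 927 and 928 cocultured, and 444 and 388 in MM.1R alone and 935 and 884 cocultured. The INA-6 arrays read 319 and 363 alone and 320.4 and 346 cocultured, which overlap. PMVK changed by 2.38 (SE 0.19, adjusted p 0.0001) in MM.1S and 1.12 (SE 0.19, adjusted p 0.00640) in MM.1R, and stood at -0.03 (adjusted p 0.910) in INA-6. After coculture the MM.1 lines were at one level although PMVK had been higher in MM.1R alone. The MM.1R call was lost without the second alone or the first cocultured MM.1R array (adjusted p up to 0.0633).

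FDPS, which makes farnesyl diphosphate and is the target of bisphosphonate drugs, passed in opposite directions. It fell in MM.1R from 1968 and 2012 to 1190 and 1299, by 0.68 (SE 0.17, adjusted p 0.0342), and rose in INA-6 from 580 and 495 to 862 and 789, by 0.62 (SE 0.17, adjusted p 0.0178). In MM.1S it was -0.24 (adjusted p 0.350). With centred arrays the FDPS rise in INA-6 was 0.17 and did not pass. The call in MM.1R passed in 4 of 12 fits that each left out 1 array, with adjusted p up to 0.206 without 1 of the MM.1R arrays, of the cocultured MM.1S arrays or of the cocultured INA-6 arrays. The call in INA-6 passed in 10 of 12, not without either cocultured INA-6 array (adjusted p up to 0.106).

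MVK, MVD and IDI1 fell in INA-6 and did not pass in the MM.1 lines. MVK, mevalonate kinase, went from 915 and 1197 to 563 and 518 there, a change of -0.95 (SE 0.26, adjusted p 0.0176), which was lost without the second alone array (adjusted p 0.0616) or either cocultured INA-6 array (adjusted p up to 0.0918). MVD, the decarboxylase that follows the kinases, passed the filter on low values only through INA-6 alone, where it read 27.6 and 33.7 against 2.84 and 7.54 cocultured and 1.29 to 8.31 in the MM.1 lines. Its change of -1.84 (SE 0.34, adjusted p 0.00267) therefore describes a gene seen in 1 group, and the filter fixed its direction. IDI1, isopentenyl diphosphate isomerase, fell by 0.65 (SE 0.20, adjusted p 0.0263) on its brightest probe set, and did not pass without 1 of the cocultured MM.1S or INA-6 arrays (adjusted p up to 0.149). Its probe set 242065_x_at rose by 0.87 in INA-6 (adjusted p 0.0493) and by 1.69 in MM.1S (adjusted p 0.00437). ACAT2 and HMGCS1, which stand at the head of the pathway, did not pass in any line. HMGCS1 in INA-6 read 279 and 73.8 alone against 242 and 228 cocultured, and its change of 0.68 (adjusted p 0.284) became 1.61 (adjusted p 9.83e-05) without the first alone array.

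Of the 9 sterol enzymes, 4 fell in MM.1S and none rose, where 7.69% of all genes were lower and 22.8% higher. In MM.1R 2 fell and 1 rose, against 2.13% and 12.0%, and in INA-6 5 fell and 1 rose, against 12.5% and 38.2%. SQLE, squalene epoxidase, a rate-limiting step of sterol synthesis, differed in direction between MM.1R and INA-6. In MM.1R it went from 14.4 and 17.8, both below their array medians, to 46.1 and 43.5, a rise of 1.24 (SE 0.21, adjusted p 0.00555). In INA-6 it fell from 1285 and 1039 to 514 and 454, by 1.25 (SE 0.21, adjusted p 0.00147), and in MM.1S it read 41.3 and 33.9 alone and 26.8 and 22.2 cocultured (-0.53, adjusted p 0.0913). Cocultured INA-6 was still far above every MM.1 array. The second-brightest SQLE probe set, 209218_at, rose by 2.17 in MM.1R (adjusted p 0.00701) and did not pass in INA-6 (-0.57, adjusted p 0.246). The MM.1R call on the brightest was lost without the first alone or first cocultured MM.1R array (adjusted p up to 0.0521).

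LSS, lanosterol synthase, which closes the sterol rings, ran opposite to SQLE in INA-6. It rose there from 171 and 124 to 319 and 299, by 1.06 (SE 0.19, adjusted p 0.00250), and fell in MM.1S from 1196 and 1177 to 619 and 598, by 0.96 (SE 0.19, adjusted p 0.00668). In MM.1R it read 931 and 955 alone and 720.4 and 683 cocultured (-0.42, adjusted p 0.215). The MM.1S call was lost without the second cocultured MM.1S array (adjusted p 0.0547). The dim LSS probe set 211019_s_at fell in INA-6 by 1.24 (adjusted p 0.0356).

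SC5D, the sterol desaturase, fell in INA-6 from 571 and 584 to 247 and 288, by 1.10 (SE 0.19, adjusted p 0.00164), and stood at 0.38 and 0.21 in MM.1S and MM.1R. Its INA-6 call held without each array. EBP, the sterol isomerase, fell in INA-6 from 1224 and 1383 to 860.3 and 874, by 0.58 (SE 0.16, adjusted p 0.0186), but not without either cocultured INA-6 array (adjusted p up to 0.0902). Its probe set 213787_s_at rose by 1.95 (adjusted p 0.000231) in MM.1S and by 1.21 (adjusted p 0.00477) in MM.1R, and fell by 1.80 (adjusted p 0.000162) in INA-6. HSD17B7, a sterol reductase with near-identical copies in the genome that could share its signal, fell in MM.1S from 1660 and 1580 to 863 and 833, by 0.93 (SE 0.18, adjusted p 0.00546). It stood at -0.32 in MM.1R and -0.04 in INA-6. TM7SF2, another sterol reductase, read 41.2 and 19.1 in MM.1S alone and 54.9 and 46.2 cocultured, 33.3 and 26.3 in MM.1R alone and 53.6 and 45.7 cocultured, and 39.9 and 55.7 in INA-6 alone and 78.8 and 60.5 cocultured. All cocultured TM7SF2 arrays were above the alone arrays of their line, but the changes of 0.73, 0.65 and 0.50 did not pass. Of all genes 34.3% had changes above 0 in all 3 lines, and the TM7SF2 change in INA-6 ran from 0.05 to 0.72 under the alternatives. NSDHL (0.57, -0.70 and 0.23 in MM.1S, MM.1R and INA-6) did not pass in any line, and in INA-6 it was -0.57 and passed with quantile normalization.

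STARD4, which carries cholesterol between membranes, rose in INA-6 from 61.6 and 54.0 to 175 and 139, by 1.36 (SE 0.35, adjusted p 0.0124), a call lost without the first cocultured INA-6 array (adjusted p 0.0766). In MM.1S it read 75.2 and 32.0 alone and 97.9 and 76.0 cocultured, and in MM.1R 58.5 and 63.5 alone and 96.8 and 118 cocultured. Those changes, 0.74 and 0.76, did not pass. Under 3 of 21 alternatives the INA-6 call of STARD4 was lost. Its change there was 0.78 with quantile normalization and 0.91 with centred arrays.

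Of the 6 fatty acid enzymes, 4 rose and 1 fell in INA-6, where 38.2% of all genes were higher and 12.5% lower. Their median change there was 0.98 as deposited and 0.37 with quantile normalization, beside 0.47 and 0.16 for all genes. In MM.1S 1 rose (ELOVL6) and in MM.1R 1 fell (FASN). ACACA, acetyl-CoA carboxylase, the committed step of fatty acid synthesis, rose in INA-6 from 172 and 69.5 to 363 and 432, by 1.80 (SE 0.35, adjusted p 0.00340). Without the first or second alone array this was 2.43 or 1.18. In MM.1S and MM.1R ACACA read 176 to 205 on all 8 arrays, with changes of -0.16 and -0.06. FASN, fatty acid synthase, rose on its brightest probe set in INA-6 from 86.6 and 92.2 to 182 and 218, by 1.11 (SE 0.25, adjusted p 0.00689). It fell in MM.1R from 377 and 294 to 206 and 138, by 0.96 (SE 0.25, adjusted p 0.0377), and stood at -0.67 (adjusted p 0.0796) in MM.1S. The dim other FASN probe set had the opposite sign in INA-6 (-0.82) and MM.1R (0.10), where it did not pass. In MM.1S it had the same sign (-0.59). As the mean of both probe sets the FASN change in INA-6 was 0.15, so the rise there belongs to the brightest. The MM.1R call of FASN passed in 3 of 12 fits that each left out 1 array, without the first cocultured MM.1R array or either INA-6 alone array, and its adjusted p was up to 0.228 in the others. The INA-6 call was lost without the second cocultured INA-6 array (adjusted p 0.0547).

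ACLY, which supplies cytosolic acetyl-CoA from citrate, read 922 and 390 in INA-6 alone and 1251 and 1210 cocultured, a rise of 1.03 (SE 0.34, adjusted p 0.0374) that was 1.65 or 0.41 without the first or second alone array. That call passed only in the fits without 1 of the INA-6 alone arrays, with adjusted p up to 0.129 in the other 10. The dim ACLY probe set 210337_s_at rose in every line, by 2.31, 1.62 and 1.10 (adjusted p 0.000135, 0.00145 and 0.00249). On the brightest, ACLY stood at 0.06 and 0.04 in MM.1S and MM.1R. ELOVL6, which lengthens palmitate, rose by 0.93 in MM.1S (SE 0.29, adjusted p 0.0419) and by 0.93 in INA-6 (SE 0.29, adjusted p 0.0274), and stood at 0.61 in MM.1R. Its arrays did not overlap between the groups in any line: 127 and 168 against 270.4 and 292 in MM.1S, 183 and 177 against 286 and 267 in MM.1R, and 557 and 304 against 838 and 742 in INA-6. The MM.1S call passed in 2 of 12 fits, those without 1 of the INA-6 alone arrays (adjusted p up to 0.196 in the others), and the INA-6 call was lost without the second alone or either cocultured array (adjusted p up to 0.126). SCD, the stearoyl-CoA desaturase, fell in INA-6 from 2287 and 2219 to 1412 and 1399, by 0.68 (SE 0.17, adjusted p 0.0109), and not without either cocultured array (adjusted p up to 0.0627). The other SCD probe sets stood at 0.50 and 1.77 there and did not pass. FADS2, a desaturase of polyunsaturated fatty acids, was near the floor except on 1 INA-6 alone array, which read 170 beside 1 on the other, so no direction can be read for it.

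Probe sets of 1 gene often differed. Of the 15 genes with several tested probe sets, 8 in MM.1S, 8 in MM.1R and 9 in INA-6 had at least 1 with a sign opposite to the brightest. Opposite calls that both passed were found for DHCR7 in MM.1S and for SREBF2, IDI1 and LSS in INA-6.

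**Figure D3:**
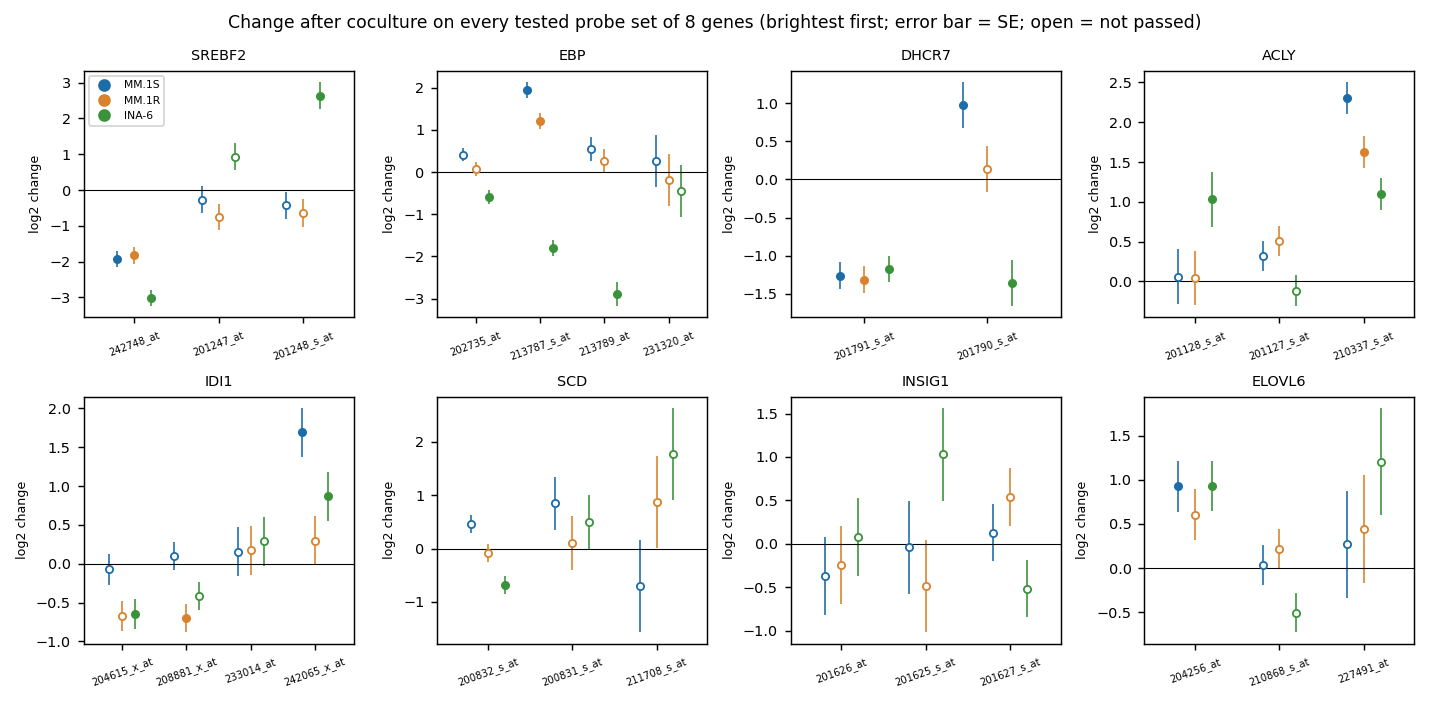
Change after coculture (log2 scale, y axis) on every tested probe set of 8 genes, the brightest to the left in each panel, with 1 point per line and bars of 1 SE; filled points passed. For SREBF2 the points of the brightest probe set lie between -1.82 and -3.01, while 201248_s_at stands at 2.64 in INA-6.

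Whether INA-6 answered coculture differently from the MM.1 lines was tested directly, as the change in INA-6 minus the average change of the MM.1 lines. The difference passed for 13 of 27 members, 5 higher and 8 lower in INA-6, against 24.1% and 13.4% of all genes. The share of all calls that were higher was 64.2%, and 52.0% with centred arrays. The higher ones were SREBF1 (3.14, adjusted p 0.000117), FASN (1.93, adjusted p 0.00184), ACACA (1.91, adjusted p 0.00924), LSS (1.75, adjusted p 0.000861) and FDPS (1.08, adjusted p 0.00490). PMVK (-1.78, adjusted p 0.000752), SQLE (-1.61, adjusted p 0.00175), MVD, SC5D, SREBF2, MVK, SCD and EBP were the lower ones, the last at -0.82 (adjusted p 0.0133). MVD passed the filter on low values only through INA-6 alone, so its direction here was fixed by the filter. For MSMO1 and DHCR7 the difference was -0.06 (SE 0.31) and 0.12 (SE 0.21), with adjusted p of 0.908 and 0.709. Over both tested probe sets of DHCR7 the mean difference was -0.90 and passed (adjusted p 0.0196). As means of their tested probe sets, SREBF2 passed the other way, at 1.16 (adjusted p 0.0105), and SCD stood at 0.28. LSS (0.22), FASN (0.68), SQLE (-0.82) and MVK (-0.68) did not pass as such means. Among the 13, MVK passed in 3 of 12 fits that each left out 1 array, SREBF2 and MVD in 11, and SCD and EBP in 10. The ACTB ratio moved oppositely in INA-6 and the MM.1 lines, and 7 of 9 plasma cell markers were lower in INA-6 in this contrast; their part in it was not tested.

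No member passed limma's test of a different answer to coculture in the glucocorticoid-resistant MM.1R and in MM.1S (0 of 27 in each direction), while 0.0864% of all genes were higher and 0.266% lower in MM.1R. Here 4 members (14.8%) had an unadjusted p below 0.05, as did 14.8% of all genes. SQLE (1.77, SE 0.29, adjusted p 0.0534), PMVK (-1.26, SE 0.27, adjusted p 0.0797) and NSDHL (-1.26, SE 0.30, adjusted p 0.0942) had the lowest adjusted p. In the fit of 1 probe set per gene 1 member was higher and 1 lower, and without either INA-6 alone array 2 were higher and 2 lower.

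The lines differed before coculture. Cultured alone, INA-6 was higher than the mean of the MM.1 lines for 10 members and lower for 6, against 20.7% and 33.5% of all genes, with a median of 0.33 beside -0.14 for all genes. With centred arrays 51.5% of all calls were higher in place of 38.3%. SQLE stood furthest apart, at 5.28 (SE 0.18, adjusted p 5.86e-07), with 1285 and 1039 in INA-6 against 14.4 to 41.3 in the MM.1 lines. The probe set 209218_at gave 5.01 for SQLE (adjusted p 6.79e-06). SC5D followed at 2.23 (adjusted p 1.10e-05), and ELOVL6 at 1.32, MVK at 1.29, SCD at 1.17, ACAT2 at 1.03, DHCR7 at 0.93 and EBP at 0.90 were higher too. MVD, at 1.84, is among the 10 only because it passed the filter through INA-6 alone, which fixes that direction. The SCD value belongs to its brightest probe set: the mean of its tested probe sets was lower in INA-6, at -0.57 (adjusted p 0.0417), and 200831_s_at read 112 and 128 in INA-6 against 142 to 375 in the MM.1 lines. SREBF2 was higher by 1.92 on 242748_at, but lower on its other probe sets, at -1.10 (adjusted p 0.0185) and -2.65 (adjusted p 0.000240). LSS was lowest in INA-6 relative to the MM.1 lines (-2.82, SE 0.17, adjusted p 4.30e-06), at 171 and 124 against 931 to 1196. SREBF1 (-2.49), FASN (-1.90), FDPS (-1.70), ACACA (-0.84) and NSDHL (-0.55) were lower as well. Without the second INA-6 alone array ACACA (adjusted p 0.199), ACAT2 (adjusted p 0.168) and NSDHL (adjusted p 0.0771) did not pass. ACACA passed in 1 of the 12 fits and NSDHL in 5. ACAT2 also failed without the second MM.1R alone array, and passed in 10.

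These starting levels and the changes above share the INA-6 alone arrays, so they are set side by side only. SQLE, SC5D, MVK, SCD, DHCR7, EBP and SREBF2 were higher in INA-6 alone and fell there on coculture, each on its brightest probe set. SREBF1, LSS, FASN, FDPS and ACACA were lower and rose, also on their brightest probe sets. MVD is left out because the filter fixed its direction, and the share of all genes with such opposite signs was not counted. ELOVL6, on its brightest probe set, was higher alone and rose.

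**Figure D4:**
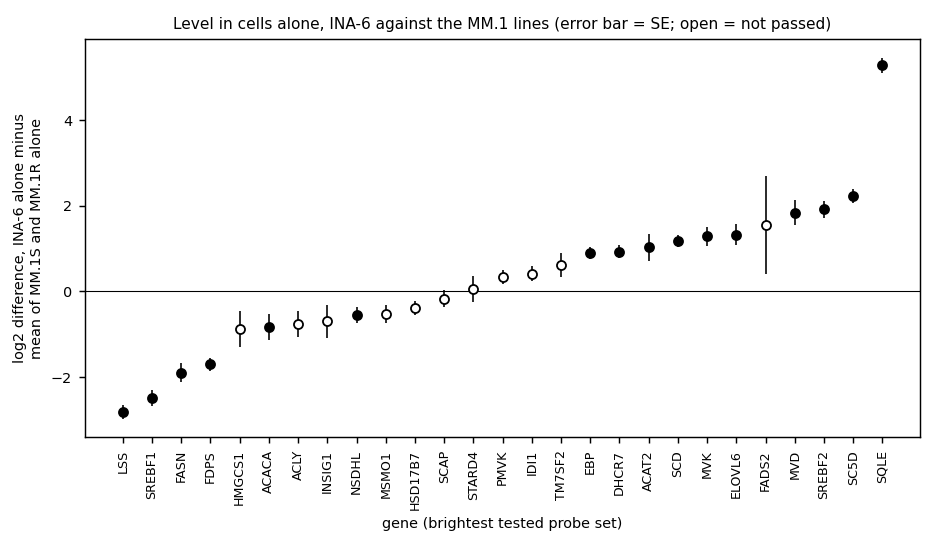
Difference in level between INA-6 and the average of the MM.1 lines (log2 scale, y axis), all cultured alone, for the 27 genes in rising order, with bars of 1 SE; filled points passed. SQLE stands apart at 5.28 and LSS is lowest at -2.82.

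MM.1R alone differed from MM.1S alone for 4 members, against 6.30% of all genes higher and 1.14% lower. Quantile normalization took the share of all calls that were higher from 84.7% to 69.3%. PMVK was higher by 1.23 (SE 0.19, adjusted p 0.0105), NSDHL by 0.93 (SE 0.21, adjusted p 0.0366) and SCD by 0.71 (SE 0.17, adjusted p 0.0446). SQLE was lower, at -1.01 (SE 0.21, adjusted p 0.0251), with both MM.1R alone arrays below their array medians. These calls depended on single arrays. With 1 array left out in turn, PMVK passed in 9 of 12 fits (not without the first MM.1S alone array or either MM.1R alone array), and NSDHL, SCD and SQLE in 2 of 12, those without 1 of the INA-6 alone arrays. Adjusted p was up to 0.112, 0.246, 0.221 and 0.195 for these 4 genes.

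A wider list of 35 sterol and lipid genes, 32 of them tested, was followed beside the members. In MM.1S 11 rose and 4 fell, in MM.1R 7 rose and 1 fell, and in INA-6 16 rose and 3 fell. The shares of all genes higher and lower were 22.8% and 7.69%, 12.0% and 2.13%, and 38.2% and 12.5%. The list's median changes were 0.18, 0.25 and 0.67, beside 0.11, 0.09 and 0.47 for all genes, and with quantile normalization -0.04, 0.07 and 0.04, beside -0.06, -0.07 and 0.16. ABCA1, which exports cholesterol, read 2.49 to 13.0 in cells alone and 295 to 532 in cocultured cells of all 3 lines. It was above the array median in the 3 cocultured groups only and passed the filter on low values through them, so its calls as higher were fixed by the filter and no size is read from levels this near the floor. INSIG2, which holds SCAP back as INSIG1 does, read 26.4 to 97.7 alone and 310 to 542 cocultured. INSIG2 rose by 3.88, 2.37 and 3.10 in MM.1S, MM.1R and INA-6, and passed in the fit common to the lines (3.12, SE 0.44, adjusted p 0.0347). Both groups of arrays lay far apart for these genes, while INSIG1 did not pass in any line. SLC25A1, which exports citrate from mitochondria, rose by 2.17, 1.49 and 2.10. LRP8, a lipoprotein receptor, fell by 0.99 in MM.1S and by 1.34 in MM.1R and rose by 2.94 in INA-6, from 34.5 and 55.8 to 410 and 335. Stromal markers rose in the same comparisons (11, 13 and 9 of 17, with the limit given above for COL6A2 and PDGFRB). What HS-5 RNA contributed to ABCA1 and INSIG2 was not tested.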

How the data were processed

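The values are probe set intensities from the deposited series table, on a linear scale. The submitters' processing notes name MAS5, while the series' design text names dChip with averaging of duplicate chips; the 12 columns differ within duplicates, so which of these made the values is not settled. Genes were named from the platform annotation given (41097 of 54675 probe sets have 1 symbol, 1801 several and 11777 none). Probe sets above their array's median on at least 2 of 12 arrays were tested (35664), on log2(intensity + 5), with limma 3.58.1 in R 4.3.3 and Benjamini-Hochberg adjustment over all of them. Of 62 control probe sets none was tested. The fit common to the lines used 6 means of duplicate arrays with the line as a block (2 residual degrees of freedom); contrasts of lines used all 12 arrays with 6 residual degrees of freedom and 1 shared spread. Precision is limited by the number of arrays. The fit common to the lines and the contrast of MM.1S were tested on simulated data, and the other contrasts were not. The members, the other lists and the tests were chosen with earlier results of these data known. All members are named; full values were set for the 10 largest changes of the common fit and the 3 largest of each line, and of the wider list up to 3 rises and 3 falls that passed are named. Alternatives were other pseudocounts, filters, scalings and gene summaries, a replicate block, and leaving out each array.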

Additional observations from a re-analysis of the deposited data

Results flagged for a closer look

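The answer to coculture differed between INA-6 and the MM.1 lines for 13 genes by limma's test of the difference itself (INA-6 change minus the mean MM.1 change, log2 scale). It was higher in INA-6 for SREBF1 (3.14), FASN (1.93), ACACA (1.91), LSS (1.75) and FDPS (1.08). It was lower for PMVK (-1.78), SQLE (-1.61), MVD (-1.56), SC5D (-1.39), SREBF2 (-1.14), MVK (-1.04), SCD (-0.87) and EBP (-0.82). MVD rests on 1 group above the array median, INA-6 alone, through which it passed the filter, so its direction was fixed. As the mean of their tested probe sets SREBF2 (1.16, adjusted p 0.0105 by limma) and SCD (0.28) take the other sign. LSS (0.22), FASN (0.68), SQLE (-0.82) and MVK (-0.68) do not pass as such means.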

How the results depend on the processing

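The counts of members that passed moved most in the common fit, where 0 higher and 0 lower became 3 and 3 with a replicate block, 2 and 3 without the INA-6 line, 4 and 3 on 12 arrays without averaging, 5 and 7 as the mean of the 3 line effects, and 0 and 1 with 1 probe set per gene. With all 12 arrays kept apart, duplicates count as replicates. In MM.1S, 2 higher became 1 with no filter, with centred arrays and with the replicate block, and 4 without all INA-6 arrays (chosen after seeing the data); 5 lower became 9 with quantile normalization, 8 with centred arrays and 3 as gene means. In MM.1R, 5 lower became 3 with no filter, as gene means and with the block, 9 with quantile normalization and 10 without all INA-6 arrays. In INA-6, 8 higher became 3 with quantile normalization or centring, and 10 lower became 5 as gene means. For the INA-6 effect minus the MM.1 effect, 8 lower became 5 as gene means. For the MM.1R effect minus the MM.1S effect, 0 and 0 became 1 and 1 with a pseudocount of 16, a filter of 6 arrays or 1 probe set per gene, and 1 higher with quantile normalization. For MM.1R against MM.1S alone, 3 higher and 1 lower became 1 and 0 with no filter, 1 higher with centring or the block, and 0 lower as gene means. The cause was not tested. As the mean of all tested probe sets of a gene, signs turned for SCD (0.53), LSS (-0.091), IDI1 (0.023) and SREBF2 (0.19) in INA-6, for SCD (0.28), DHCR7 (-0.90) and SREBF2 (1.16) in the effect difference, for SCD alone in MM.1R against MM.1S (-0.018), and for SCD (-0.57) and SREBF2 (-0.61) in INA-6 alone. With quantile normalization NSDHL turned to -0.57 in INA-6 and 0.057 in INA-6 alone; INSIG1 turned to -0.75 in INA-6 without the second alone array and stood at 0.92 without the first. Leaving out each array in turn gave 1 to 5 higher and 4 to 7 lower in MM.1S, 0 to 3 and 2 to 10 in MM.1R, 4 to 11 and 6 to 12 in INA-6, 5 to 10 and 3 to 10 for the INA-6 effect difference, 0 to 2 and 0 to 2 for that of MM.1R, 0 to 5 and 0 to 3 for MM.1R against MM.1S alone, 9 to 11 and 4 to 11 for INA-6 alone, and 0 and 0 in the common fit. Where 1 array is left in a group, it is assumed to vary like the others. Of 4736 single-gene values under the alternatives, 4366 kept their side of the threshold (a turned sign that passed neither time counts as kept), 188 lost it, 169 gained it and 13 reversed. Deviations of same-numbered arrays, alone against cocultured, correlated at 0.385 in MM.1S, 0.576 in MM.1R and 0.078 in INA-6, so the numbers were not taken to pair the arrays. The centring on tested probe sets was settled after results were seen. Signal near background limits FADS2, MVD, SQLE in MM.1R alone, SREBF1 in INA-6 alone and the dim probe sets.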
